A study of Homo sapiens with 38 samples.

Results

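Nuclear RNA from HCT116 cells lacking AGO2 was compared with nuclear RNA from HCT116 cells lacking AGO1. The members were the libraries whose titles name the nuclear fraction of either single knockout, and they make up 6 of the 38 samples of the series. HCT116 is a human colorectal carcinoma cell line, and both knockout lines were made from it by CRISPR editing. The AGO1 knockout nuclei were sampled at culture passages 6, 7 and 8 and the AGO2 knockout nuclei at passages 8, 9 and 10, with 1 library for each passage. No agent was added in either group, cells were taken close to confluence, and nuclei were isolated by hypotonic lysis with NP-40 before ribosomal RNA was depleted. Each genotype is 1 edited line, so an effect of the missing protein and a difference between the lines that arose in another way cannot be told apart. The P values of the fits below measure the spread between passages within a line, pooled over the lines of each fit. They do not measure the spread between edited lines. Nuclear wild-type libraries at passages 27 to 29, and nuclear AGO1/2 and AGO1/2/3 knockout libraries, shared the fit and are given as reference levels.

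Argonaute proteins carry microRNAs to partly complementary sites in target RNAs, where the GW182 scaffold proteins of the TNRC6 family recruit the enzymes that shorten poly(A) tails and remove caps. AGO2 can also cleave a target RNA itself, whereas AGO1 is known mainly for acting through its partners. Both proteins are found in nuclei as well as in the cytoplasm, and the series was made to ask what Argonaute does to nuclear RNA and its splicing.

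The AGO1 knockout libraries held 31252459 to 32282444 estimated reads assigned to transcripts, and the AGO2 knockout libraries held 35530955 to 36880820. Pearson's r between log expression profiles was 0.996 to 0.997 within the AGO1 knockout, 0.997 to 0.998 within the AGO2 knockout and 0.986 to 0.989 between them. Of the markers of other cell types, such as the leukocyte gene PTPRC and the endothelial gene CDH5, 4 of 19 were at 0 in all 6 libraries and the list summed to 18.9 to 22.5 CPM in AGO1 knockout and 17.5 to 20.3 CPM in AGO2 knockout nuclei. CPM are counts scaled to library size with TMM factors, a level that does not correct for gene length. Markers of the endoplasmic reticulum (ER), whose membrane is continuous with that of the nucleus, moved with genotype. The 17 listed ER and secretory transcripts summed to 5104 to 5318 CPM in AGO1 knockout, 6762 to 7178 CPM in AGO2 knockout and 4788 to 5043 CPM in wild-type nuclei. The sum of the 15 mitochondrially encoded RNAs overlapped, at 3610 to 4126 CPM and 3634 to 4065 CPM. The part of ER-bound RNA in the differences below was not tested.

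The targeted genes were examined first. AGO1 (ENSG00000092847.14, chromosome 1, 35869808 to 35930532, GRCh38, plus strand) was at 63.9, 60.4 and 61.5 CPM in AGO1 knockout nuclei and at 171, 162 and 163 CPM in AGO2 knockout nuclei. The groups did not overlap, and all 3 AGO2 knockout libraries lay above the wild-type range of 130 to 156 CPM. Between AGO2 knockout and wild type, however, the edgeR log2 difference was 0.16 with adjusted P 0.064, and AGO1 was not called. The log2 difference, AGO2 minus AGO1 knockout, was 1.41 (SE 0.069, adjusted P 1.7e-09), a fold of 2.67. AGO2 (ENSG00000123908.12, chromosome 8, 140520156 to 140635633, minus strand) was at 453, 443 and 456 CPM in AGO1 knockout nuclei and at 375, 340 and 357 CPM in AGO2 knockout nuclei. Here too the groups did not overlap, but the AGO2 knockout kept most of the wild-type level of 455 to 535 CPM. The log2 difference was -0.34 (SE 0.0774, adjusted P 0.0047). The exact permutation P for 3 libraries against 3 was 0.1 for both genes, the smallest this design allows. Each targeted mRNA was thus lower in its own single knockout, AGO1 by more than AGO2, and these levels of RNA say nothing of the amount of protein. In the AGO1/2 knockout AGO1 was at 37.8 to 42.0 CPM, but AGO2 was at 387 to 483 CPM, a range that holds the AGO1 knockout level. In the AGO1/2/3 knockout they were at 44.2 to 45.8 and 354 to 370 CPM.

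**Figure D1:**
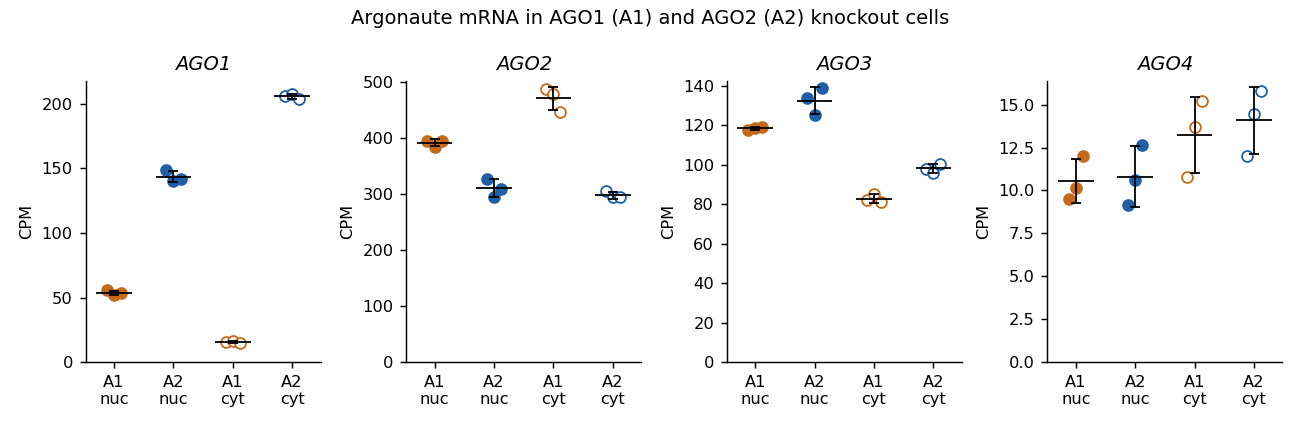
Level of the 4 Argonaute mRNAs (vertical axes, CPM, each starting at 0) in nuclear (filled) and cytoplasmic (open) libraries of the AGO1 (A1) and AGO2 (A2) knockouts, from the fit of 12 libraries. Points are libraries, horizontal lines are means and bars are SD (n = 3). AGO1 is lowest in the cytoplasm of its own knockout and AGO2 is lower in the AGO2 knockout in both fractions.

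Per length, AGO2 remained the most abundant Argonaute transcript in both knockouts. In AGO1 knockout nuclei AGO2 stood at 44.8 ± 6.69 TPM, AGO3 at 14.6 ± 1.28, AGO1 at 3.78 ± 0.308 and AGO4 at 1.58 ± 0.232 (SD, n = 3). In AGO2 knockout nuclei AGO2 stood at 29.98 ± 3.73 TPM, AGO3 at 14.9 ± 1.41, AGO1 at 11.2 ± 0.875 and AGO4 at 1.40 ± 0.305 (SD, n = 3). The order of the 4 genes was the same in both knockouts. The share of AGO1 transcripts given to its main coding isoform AGO1-201 was 73.0% ± 3.03 in AGO1 knockout and 60.8% ± 1.28 in AGO2 knockout nuclei, against 66.2% in wild type. AGO2-201, the main coding isoform of AGO2, took 42.6% ± 2.86 and 51.2% ± 2.999. The isoform AGO2-202, annotated without a defined coding sequence, took 16.8% ± 4.88 in AGO1 knockout and 5.50% ± 4.02 in AGO2 knockout nuclei.

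The Argonautes that were not targeted gave small differences. AGO3 was at 135, 137 and 138 CPM in AGO1 knockout and 153, 144 and 160 CPM in AGO2 knockout nuclei, a log2 difference of 0.16 with adjusted P 0.068, and it passed with DESeq2 (adjusted P 0.042), with the 6 libraries alone (0.018) and without passage 9 of the AGO2 knockout (0.043), but at a log2 difference of 0.03 it did not on the TPM scale. AGO4 was at 10.9, 11.7 and 13.8 CPM against 10.5, 12.2 and 14.6 CPM, a log2 difference of 0.03 with adjusted P 0.9. Across the 18 microRNA pathway genes, 3 passed the test, against 26.4% of all 18919 genes tested, and the median log2 difference was -0.04 against -0.01 for all genes. The other called member was ZSWIM8, the substrate receptor of the ligase that destroys Argonaute on highly complementary targets. ZSWIM8 was at 41.2, 41.1 and 40.4 CPM in AGO1 knockout nuclei and fell to 32.0, 31.7 and 33.1 CPM in AGO2 knockout nuclei (log2 difference -0.34, SE 0.0579, adjusted P 0.00045). For the GW182 scaffolds the log2 differences were 0.04 for TNRC6A, -0.11 for TNRC6B and -0.03 for TNRC6C. For the processing enzymes they were -0.12 for DROSHA, 0.00 for DGCR8 and 0.11 for DICER1, for the exporter XPO5 -0.20, and for the Dicer partners TARBP2 and PRKRA -0.08 and -0.15. For the tailing and small RNA decay factors they were -0.05 for TUT4, -0.09 for TUT7, 0.02 for DIS3L2 and 0.67 for LIN28B, whose level was below 0.317 CPM in all 6 libraries. None of these 13 genes was called by edgeR, though 7 of the 18 pathway genes had an unadjusted P under 0.05 and DESeq2 called 4.

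Across all genes the knockout lines differed widely. Of 18919 genes tested, 4996 passed (26.4%), of which 2804 were higher in AGO2 knockout nuclei (14.8%) and 2192 were lower (11.6%). The median absolute log2 difference of the called genes was 0.46, and 907 differed by at least 1 on the log2 scale, 459 higher and 448 lower. Among protein-coding genes 4288 of 13601 were called, 2602 of them higher in the AGO2 knockout, whereas among long noncoding RNAs (lncRNAs) 480 of 3229 were called, 337 of them lower. The 6 libraries did not overlap between groups for 9048 genes (47.8%). The mean of the wild-type nuclei lay nearer the AGO1 knockout for 3145 of the called genes and nearer the AGO2 knockout for 1851. The mean of the AGO1/2 knockout lay nearer the AGO2 knockout for 3616 of them. The count depended on the unit, since limma on log2(TPM + 1) called 2684 genes, of which 2552 were also called by edgeR, and on the libraries, since edgeR on the 6 single knockout libraries alone called 6803 of 17541.

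**Figure D2:**
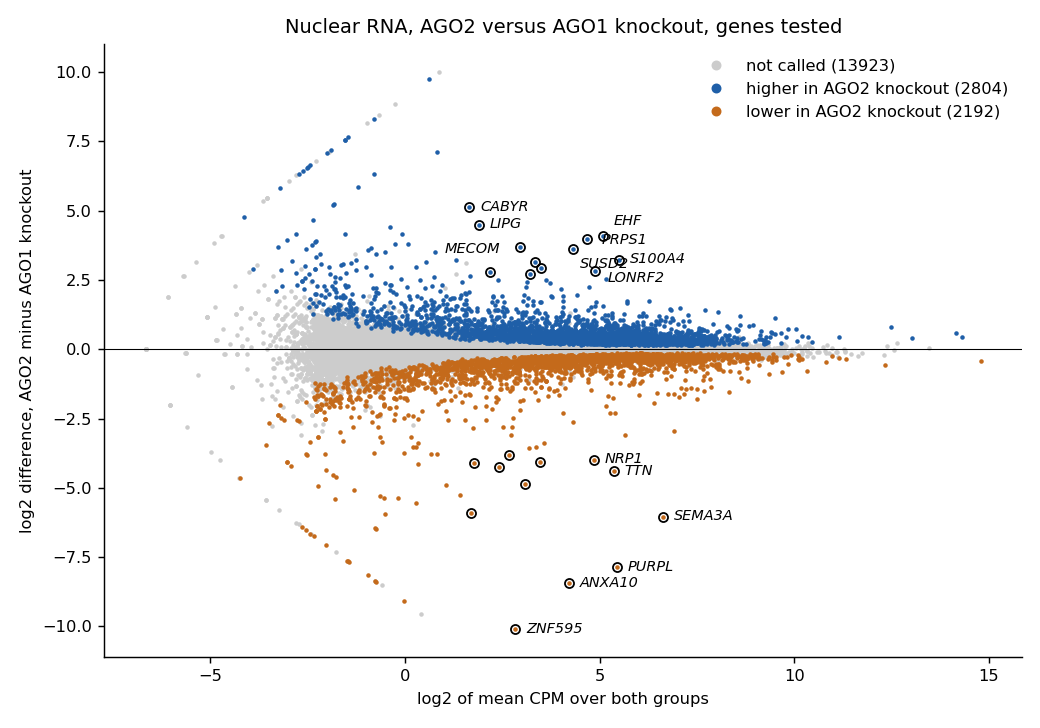
Difference between the knockouts for each of the 18919 genes tested in nuclear RNA. The horizontal axis is log2 of the mean CPM over both groups and the vertical axis is the log2 difference, AGO2 minus AGO1 knockout. Blue points were called higher (2804), orange points lower (2192) and grey points were not called. Rings mark the named genes, with most labelled, and ZNF595, ANXA10, PURPL and SEMA3A lie lowest among them. Points on the slanted edges belong to genes near 0 in 1 group, whose fitted difference depends on the prior count.

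The 12 most changed genes in each direction were followed one by one. ZNF595, a zinc finger gene near the end of the short arm of chromosome 4, was at 15.4, 12.7 and 14.5 CPM in AGO1 knockout nuclei and at 0.0278, 0 and 0 CPM in AGO2 knockout nuclei. It had 1 read in the 3 AGO2 knockout libraries against 1316 in the AGO1 knockout libraries, a ratio of 1499 with a 95% exact interval of 269 to 59251 that covers counting error only. It was present in the other genotypes, at 8.45 to 10.4 CPM in wild type and a mean of 10.4 CPM in the AGO1/2 knockout.

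ANXA10, a gene of the annexin family of calcium-dependent membrane binders, was at 39.2, 36.1 and 35.9 CPM in AGO1 knockout and at 0.0833, 0.171 and 0.0576 CPM in AGO2 knockout nuclei (log2 difference -8.43, SE 0.285, adjusted P 3.4e-10). In wild type it was at 15.3 to 22.8 CPM, and in the AGO1/2 knockout it was also near 0, at a mean of 0.0158 CPM. PURPL, an lncRNA known to be induced by p53, was at 84.2, 90.5 and 87.0 CPM in AGO1 knockout and at 0.306, 0.371 and 0.432 CPM in AGO2 knockout nuclei (log2 difference -7.87, SE 0.131, adjusted P 6e-15). Wild-type nuclei held 3.70 to 5.08 CPM of PURPL, so that the AGO1 knockout was above wild type and the AGO2 knockout below it.

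SEMA3A, a secreted guidance ligand, was at 180, 196 and 205 CPM in AGO1 knockout and at 2.61, 3.06 and 3.14 CPM in AGO2 knockout nuclei (log2 difference -6.04, SE 0.177, adjusted P 5.3e-12). Wild type held 111 to 122 CPM. NRP1, which encodes a receptor for SEMA3A, was at 52.1, 49.2 and 62.1 CPM in AGO1 knockout and at 3.56, 3.17 and 3.57 CPM in AGO2 knockout nuclei (log2 difference -3.99, SE 0.225, adjusted P 8.3e-09). For this receptor wild type was low as well, at 5.35 to 11.1 CPM. The ligand and the receptor thus fell together between the knockouts but stood differently against wild type.

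TTN, the giant sarcomere protein gene, was at 86.1, 78.3 and 71.8 CPM in AGO1 knockout nuclei and at 3.81, 3.91 and 3.40 CPM in AGO2 knockout nuclei (log2 difference -4.41, SE 0.128, adjusted P 5.3e-12), with wild type at 103 to 115 CPM. LAMA4, a laminin chain of basement membranes, fell from 9.005, 9.96 and 11.5 CPM to 0.611, 0.571 and 0.403 CPM. GRIK2, a kainate glutamate receptor, fell from 5.66, 6.52 and 7.08 CPM to 0.278, 0.428 and 0.403 CPM. The other named genes that fell were DPEP1, a membrane dipeptidase, by 5.89 on the log2 scale, the zinc finger gene ZNF426 by 4.86, MSRB3-AS1 by 4.05 and PTCHD4 by 3.81, all without overlap. MSRB3-AS1 is antisense to MSRB3, and the strand setting of the counting is not given in the sources used here, so reads of the pair cannot be told apart.

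Among the genes higher in the AGO2 knockout, PRPS1, which makes the ribose donor for nucleotide synthesis, was at 2.93, 2.77 and 3.49 CPM in AGO1 knockout and at 50.1, 47.5 and 47.1 CPM in AGO2 knockout nuclei (log2 difference 3.98, SE 0.111, adjusted P 4.4e-12). Wild type held 28.9 to 32.8 CPM, between the knockouts. EHF, an epithelial ETS transcription factor, was at 3.93, 4.07 and 3.197 CPM against 62.6, 65.5 and 64.5 CPM (log2 difference 4.10, SE 0.19, adjusted P 9.9e-10), with wild type between at 25.6 to 33.1 CPM. MECOM, a zinc finger transcription factor gene, was at 1.11, 1.30 and 0.979 CPM against 14.6, 14.7 and 14.1 CPM (log2 difference 3.67), again with wild type between at 6.56 to 7.85 CPM. These genes stepped in the same order, AGO1 knockout below wild type and wild type below AGO2 knockout. In the AGO1/2 knockout they parted, with means of 81.7 CPM for PRPS1, 7.76 CPM for EHF and 0.521 CPM for MECOM. PRPS1 was thus above the AGO2 knockout there, EHF below wild type and MECOM below the AGO1 knockout.

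CABYR, a calcium-binding protein gene best known from sperm, was at 0.195, 0.0954 and 0.228 CPM in AGO1 knockout and at 5.92, 6.54 and 5.93 CPM in AGO2 knockout nuclei (log2 difference 5.12, SE 0.291, adjusted P 8.7e-09). Of the 5 nuclear genotypes only the AGO2 knockout held it above 1 CPM in the mean, since wild-type libraries held at most 0.376 CPM, the AGO1/2 knockout a mean of 0.0968 CPM and the AGO1/2/3 knockout a mean of 0.170 CPM. LIPG, endothelial lipase, was at 0.195, 0.573 and 0.163 CPM against 6.58, 6.91 and 7.91 CPM (log2 difference 4.50). S100A4, a calcium-binding protein linked to cell motility, was at 7.15, 9.03 and 10.0 CPM against 65.8, 82.4 and 96.8 CPM (log2 difference 3.22, SE 0.258, adjusted P 3.2e-07). The remaining named genes that rose were SUSD2 (3.63), CYP4F11 (3.14), the secreted kallikrein proteases KLK6 (2.92) and KLK10 (2.77), LONRF2 (2.83) and the lysosomal protease CTSH (2.71), with log2 differences in parentheses and no overlap between the groups.

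The gene lists were then read as groups, each beside the 14.8% of all genes that rose and the 11.6% that fell. Among epithelial junction and keratin genes, 16 of 34 tested members rose in the AGO2 knockout and 3 fell, with a median log2 difference of 0.41. The junction adhesion gene CDH1 was at 38.3, 42.2 and 51.6 CPM in AGO1 knockout and 98.4, 99.2 and 105 CPM in AGO2 knockout nuclei (log2 difference 1.20, SE 0.24, adjusted P 0.0017), with wild type spread from 74.2 to 146 CPM. The epithelial adhesion gene EPCAM was at 142, 144 and 142 CPM against 240, 231 and 231 CPM (log2 difference 0.71, SE 0.0552, adjusted P 2.4e-07), and wild type was at the AGO1 knockout level, 145 to 146 CPM. The tight junction claudin CLDN4 was at 36.0, 41.3 and 46.1 CPM against 88.8, 92.9 and 103 CPM (log2 difference 1.21). In the AGO1/2 and AGO1/2/3 knockouts CDH1 had means of 21.6 and 34.9 CPM and EPCAM means of 98.8 and 112 CPM. These means lay below both single knockouts. CDH1, EPCAM and CLDN4 were picked out after their values were seen.

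By the fixed rule the members with the largest differences were KRT80 (log2 difference 1.95), KRT7 (1.60), KRT20 (1.56) and KLF4 (-1.41). The 3 keratins were at low levels, KRT20 for example at 0.358, 0.318 and 0.359 CPM against 0.667, 1.23 and 1.18 CPM, and KRT7 lost its call under 8 of the alternatives. KLF4, a transcription factor of differentiating epithelium, moved the other way, from 24.5, 22.4 and 27.9 CPM down to 9.39, 8.91 and 9.81 CPM. The main keratins of the line, KRT8 and KRT18, gave log2 differences of 0.02 and -0.07 and were not called. Many of the junction proteins are made at the ER, whose markers rose by a median log2 difference of 0.37 in the same libraries, and the part of that shift in the list was not tested.

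Of 11 mesenchymal genes tested, 3 fell and 1 rose. The intermediate filament gene VIM was at 4.88, 4.64 and 4.76 CPM in AGO1 knockout and 2.31, 1.63 and 2.10 CPM in AGO2 knockout nuclei (log2 difference -1.24, SE 0.131, adjusted P 6.2e-06). ZEB1, a repressor of CDH1, was at 15.3, 13.6 and 14.4 CPM against 9.33, 8.57 and 7.28 CPM (log2 difference -0.78, SE 0.114, adjusted P 0.00012). SNAI1, another repressor of CDH1, gave -0.27 and lost its call under 11 of the alternatives. The member that rose was S100A4, described above, so the list did not move as a block.

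**Figure D3:**
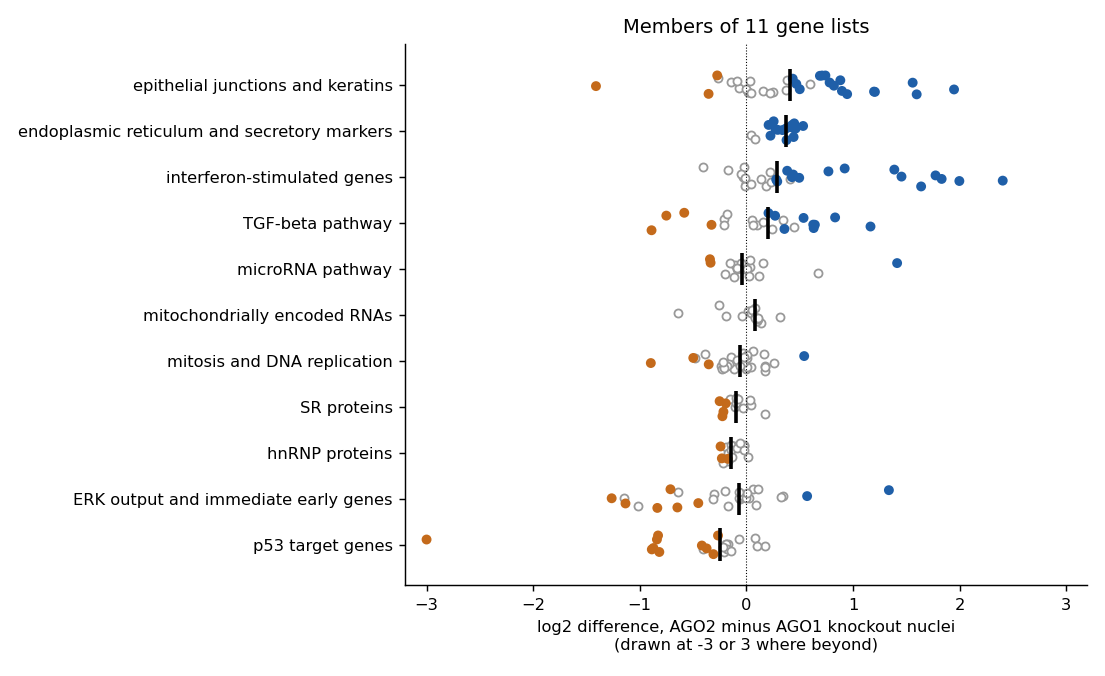
Tested members of 11 gene lists by log2 difference, AGO2 minus AGO1 knockout nuclei (horizontal axis). Filled blue points were called higher, filled orange points lower, open points were not called, and black bars are list medians. The ER list lies wholly to the right of 0 with a median of 0.37, and the p53 list mostly to the left with a median of -0.24. SPATA18, at 0 in the AGO2 knockout, is drawn at -3 although its fitted value has no lower bound.

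Genes activated by p53, the stress-response transcription factor, were lower in the AGO2 knockout or not called. Of 22 tested, 10 fell, the other 12 were not called, and 19 had a negative log2 difference, with a median of -0.24. FDXR, a mitochondrial electron carrier gene, was at 77.2, 87.1 and 85.1 CPM in AGO1 knockout and 41.6, 45.7 and 47.7 CPM in AGO2 knockout nuclei (log2 difference -0.89, SE 0.0631, adjusted P 9.9e-08). DDB2, a DNA damage sensor, was at 84.5, 88.3 and 84.8 CPM against 43.9, 49.1 and 47.9 CPM (log2 difference -0.87, SE 0.0603, adjusted P 7.2e-08). RRM2B, a ribonucleotide reductase subunit, was at 86.4, 92.7 and 92.1 CPM against 46.4, 51.5 and 53.7 CPM (log2 difference -0.84, SE 0.0741, adjusted P 9.6e-07). For all 3 genes the AGO1 knockout was the farther of the knockouts from wild type, which lay at 33.0 to 36.4 CPM for FDXR, 38.2 to 43.1 CPM for DDB2 and 47.8 to 50.8 CPM for RRM2B.

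SPATA18, a p53 target that acts on mitochondrial quality, was at 1.76, 1.75 and 2.32 CPM in AGO1 knockout nuclei and at 0 in all 3 AGO2 knockout libraries. It was at least 68.3-fold lower, taking 3 reads over the group as the limit that a count of 0 allows. MDM2, the ligase that limits p53 and the next gene in order, was added after its values were seen. It was at 467, 498 and 506 CPM in AGO1 knockout and 272, 267 and 289 CPM in AGO2 knockout nuclei (log2 difference -0.83, SE 0.0663, adjusted P 3.2e-07), with wild type at 233 to 246 CPM. The cell cycle inhibitor CDKN1A gave -0.19 and the apoptosis genes BBC3 and BAX gave -0.21 and -0.27, of which only BAX was called. Without any 1 library in turn, between 8 and 11 members of the list fell.

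Interferon-stimulated genes, which encode antiviral proteins, moved in the opposite direction. Of 38 listed, 29 were tested, 15 rose and the other 14 were not called, with a median log2 difference of 0.29. STING1, an adaptor in cytosolic DNA sensing, was at 3.58, 3.72 and 4.47 CPM in AGO1 knockout and 12.3, 14.6 and 15.1 CPM in AGO2 knockout nuclei (log2 difference 1.83, SE 0.142, adjusted P 2.4e-07), above the wild-type range of 5.46 to 6.11 CPM. TLR3, an endosomal sensor of double-stranded RNA, was at 1.01, 1.65 and 1.34 CPM against 4.64, 4.88 and 4.20 CPM (log2 difference 1.77, SE 0.153, adjusted P 7.1e-07). IFITM1, a membrane protein that blocks viral entry, was at 0.325, 0.191 and 0.130 CPM against 0.778, 1.20 and 1.496 CPM (log2 difference 2.41), and MX1, an antiviral GTPase, at 0.423, 0.382 and 0.196 CPM against 1.22, 1.17 and 1.64 CPM (log2 difference 1.998). Both were low in every library, and 9 list members were too low to test. Leaving out passage 6 of the AGO1 knockout or passage 10 of the AGO2 knockout left 10 members called higher in each case, and limma on log2(TPM + 1) called 9.

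The promoters of these genes are known for a bipartite element bound by interferon regulatory factors, here searched as GAAA, any 2 bases and GAAA again or, for the other strand, TTTC, any 2 bases and TTTC. Windows run from 250 bases before to 50 bases after each annotated start in RefSeq (GRCh38.p14). Of all 35116 windows 3.57% held the motif, and of all genes 4.38%. A window was found for 21 of the 29 tested genes, and 15 of these 21 (71.4%) held it. It stood in 11 of the 13 called genes with a window and in 4 of the 8 that were not called, a description from which nothing about binding follows. Stretches upstream of 3 called genes show the spacing, with the motif in capitals. IFIT3 and IFI6 were added for their repeated motif, after their values were seen.
IFIT3, chr10:89332410-89332509, plus strand: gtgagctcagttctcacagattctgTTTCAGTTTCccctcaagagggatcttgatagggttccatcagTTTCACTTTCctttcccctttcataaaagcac
MX1, chr21:41431829-41431928, plus strand: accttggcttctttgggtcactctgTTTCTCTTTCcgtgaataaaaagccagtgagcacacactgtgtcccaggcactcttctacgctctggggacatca
IFI6, chr1:27672274-27672373, minus strand: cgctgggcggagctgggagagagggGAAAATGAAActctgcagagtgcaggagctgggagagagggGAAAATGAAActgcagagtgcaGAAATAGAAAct

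IFIT3, an antiviral RNA-binding cofactor, was at 0.943, 1.02 and 0.881 CPM in AGO1 knockout and 2.86, 3.23 and 2.79 CPM in AGO2 knockout nuclei (log2 difference 1.64). IFI6, a mitochondrial antiviral protein gene, was at 1.46, 2.89 and 3.10 CPM against 3.78, 4.60 and 5.78 CPM (log2 difference 0.92). STAT2, a transcription factor of the response, gave 0.13 and was not called.

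The ER and secretory list itself had the highest share of called members of any list, 15 of 17 higher, and no member had a negative difference. The chaperone CANX was at 949.8, 983 and 1028 CPM in AGO1 knockout and 1397, 1329.8 and 1351 CPM in AGO2 knockout nuclei (log2 difference 0.46, SE 0.0589, adjusted P 3.7e-05). P4HB, a disulfide isomerase, was at 581, 579 and 619 CPM against 875, 857 and 841 CPM (log2 difference 0.53). In the stress and unfolded protein response list 5 of 25 tested members rose, and 4 of them, HSPA5, HSP90B1, CALR and PDIA4, encode ER chaperones with log2 differences of 0.45 to 0.50. The transcription factors of that response were not called, with 0.11 for ATF4, -0.13 for DDIT3 and 0.07 for XBP1.

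In the TGF-beta pathway list 9 of 23 tested members rose and 4 fell. The inhibitor SMAD6 was at 8.65, 8.62 and 9.82 CPM in AGO1 knockout and 20.4, 19.4 and 20.9 CPM in AGO2 knockout nuclei (log2 difference 1.16, SE 0.12, adjusted P 5.1e-06). The ligand BMP4 was at 84.5, 89.8 and 85.2 CPM against 45.3, 45.4 and 49.4 CPM (log2 difference -0.89), the ligand TGFB3 gave -0.75 and the target gene ID3 gave 0.83. Both named ligands fell, and the named target and inhibitor rose.

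Among intestinal and Wnt target genes 17 were tested, 6 rose and 6 fell. The Wnt antagonist DKK1 was at 139, 120 and 143 CPM against 52.6, 37.7 and 42.6 CPM (log2 difference -1.59), while the Wnt antagonist NOTUM was at 1.14, 1.88 and 1.73 CPM against 3.78, 4.54 and 4.35 CPM (log2 difference 1.41) and the receptor EPHB3 gave 0.85. VIL1 and CDH17, markers of the intestinal brush border and epithelium, were near 0 in both knockouts, at no more than 0.228 CPM, and were not tested. The intestinal factor CDX2 gave 0.12 and was not called.

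Growth signalling showed no shared direction. Of 28 genes of ERK output and immediate early response, 6 fell and 2 rose. ETV1, an ETS factor, was at 74.3, 86.9 and 86.2 CPM in AGO1 knockout and 28.7, 37.4 and 37.0 CPM in AGO2 knockout nuclei (log2 difference -1.26, SE 0.144, adjusted P 1.4e-05), and the ephrin receptor EPHA4 gave 1.34. The immediate early genes EGR1 and FOS gave -1.13 and -0.84, and without passage 8 of the AGO1 knockout, or passage 8 or 9 of the AGO2 knockout, only 2 members fell. Of 35 mitosis and DNA replication genes 1 rose and 3 fell. The cyclin CCNE2 fell by 0.90 on the log2 scale, CCNE1 by 0.50 and the replication clamp PCNA by 0.35, and E2F1 rose by 0.54. Of 24 glycolysis and hypoxia genes 5 rose and 1 fell, led by the enolase ENO2 at 13.9, 12.9 and 15.4 CPM against 39.6, 42.9 and 39.9 CPM (log2 difference 1.53), with 1.02 for ADM, 0.79 for EGLN3 and 0.65 for P4HA1. Of 24 cholesterol genes 3 rose and 1 fell. The epoxidase SQLE gave 0.55 and the prenyl synthase FDPS gave -0.41.

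Factors that act downstream of Argonaute, and its targets, moved in both directions. Of 22 deadenylation and decapping genes 6 rose and 1 fell. The decapping cofactor DCP1B was at 29.7, 32.2 and 27.0 CPM in AGO1 knockout and 16.1, 17.1 and 15.8 CPM in AGO2 knockout nuclei (log2 difference -0.86, SE 0.0809, adjusted P 1.9e-06), near the wild-type range of 17.5 to 18.9 CPM. The deadenylases PAN2 and CNOT6L gave 0.51 and 0.39 and the decapping enzyme DCP2 gave 0.29, and limma on log2(TPM + 1) called 1 member higher. Of 17 tested targets of the let-7 microRNA family 3 rose and 1 fell. The target IGF2BP3, an RNA-binding oncofetal protein, was at 332, 337 and 338 CPM in AGO1 knockout nuclei and fell to 202, 208 and 212 CPM in AGO2 knockout nuclei (log2 difference -0.69, SE 0.0953, adjusted P 7.1e-05), while the cyclin CCND1 gave 0.65 and the receptor TGFBR1 gave 0.36. Of 14 tested microRNA host transcripts 2 rose and 2 fell, H19 by 0.69 and MIR193BHG by 0.64 upward and MIR34AHG and PVT1 with -0.62 and -0.36.

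Of 14 tested members of a noncoding RNA list that holds NEAT1, MALAT1, GAS5, SNHG1 and NORAD, 3 rose and 5 fell. The list was not chosen by a measured nuclear share. NEAT1, the scaffold of paraspeckles, was at 324, 340 and 366 CPM in AGO1 knockout and 572, 697 and 638 CPM in AGO2 knockout nuclei (log2 difference 0.89, SE 0.213, adjusted P 0.0059), with wild type spread from 573 to 1145 CPM. MALAT1 gave 0.04 and was not called. TUG1 gave -0.46, RMRP -0.41 and RN7SK 0.41, of which RMRP and RN7SK lost their call under 6 and 5 of the alternatives.

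Splicing factors differed little in level. Of 13 tested SR proteins, which favour exon inclusion, 4 fell, by 0.25 for TRA2B, 0.22 for SRSF6, 0.21 for TRA2A and 0.19 for SRSF11 on the log2 scale. Of 20 hnRNP proteins, which often favour skipping, 3 fell, by 0.24 for HNRNPUL2, 0.23 for HNRNPLL and 0.17 for HNRNPL, and the median over the list was -0.14 with 19 of 20 members negative. HNRNPL lost its call under 10 of the alternatives. Tissue-type regulators differed more, with 5 of 19 tested higher and 3 lower. MBNL2, a muscleblind splicing regulator, was at 54.6, 57.1 and 61.7 CPM against 120, 110 and 121 CPM (log2 difference 1.02, SE 0.116, adjusted P 1.3e-05), its relative MBNL3 at 6.92, 7.38 and 7.34 CPM against 15.4, 16.7 and 15.0 CPM (log2 difference 1.12), RBPMS at 18.0, 17.0 and 16.5 CPM against 7.58, 7.05 and 8.49 CPM (log2 difference -1.15), and RBM24 gave -0.95. For the mitochondrially encoded RNAs edgeR called 0 of 15, with 1 member at an unadjusted P under 0.05, and DESeq2 called 1. Of 5 tested markers of other cell types the neuronal gene SNAP25 fell, from 1.56, 1.78 and 2.15 CPM to 0.0833, 0.171 and 0.144 CPM.

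Differences were also read along the genome. Of 275 bins of 10 Mb with at least 20 tested genes, 16 had a median log2 difference of at least 0.2 from 0, 15 of them lower. The lowest were on chromosome 9 beside the centromere. From 40 to 50 Mb the median of 21 genes was -1.14 and 13 genes fell, and from 60 to 70 Mb the median of 46 genes was -0.87 and 22 fell. Against wild type the AGO1 knockout medians of these bins were -0.16 and -0.21 and the AGO2 knockout medians -1.21 and -1.07. The other lower bins had medians of -0.21 to -0.35, and chromosome 11 from 50 to 60 Mb had a median of 0.20. CNTNAP3B, chosen after its values were seen, was at 167, 182 and 195 CPM in AGO1 knockout and 56.3, 58.6 and 64.4 CPM in AGO2 knockout nuclei (log2 difference -1.60, SE 0.134, adjusted P 5.3e-07), and ZNG1E at 148, 149 and 153 CPM against 82.6, 78.3 and 71.3 CPM (log2 difference -0.95). Both belong to families of near-identical copies in this region, so the share of reads given to each copy is uncertain, and copy number was not measured. In cytoplasm of the same lines the log2 difference was -1.35 for CNTNAP3B but -0.26 for ZNG1E. The copies ZNG1F and ZNG1C gave -0.09 and -0.08 there, against -0.91 and -0.78 in nuclei. For ZNG1E the edgeR interaction of fraction and genotype was -0.69 (adjusted P 0.0013), and for CNTNAP3B it was -0.25 (adjusted P 0.30).

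Exon inclusion was estimated for skipped exons of the annotation, as the share of transcript TPM that carries the exon among the transcripts that carry or skip it. Of 21744 events, 21 in 18 genes were called (0.0966%), with 13 gained and 8 lost in the AGO2 knockout, and 88 had an adjusted P of at most 0.05 at any size. The gains count TIAM1 exons of 105 and 75 bases separately, although their values were identical. They also include DDR1, at 0.0812 TPM in the AGO1 knockout with inclusion defined in 1 library. The losses include RBM24, at 0.0627 TPM in the AGO2 knockout with inclusion defined in 2 libraries. The exons printed here are coding exons of called events and the microexon of KIF21A that the study followed by PCR, each with 10 intron bases in lower case on either side and the exon in capitals, on the strand of the gene in GRCh38.
ADAM15, chr1:155052521-155052569: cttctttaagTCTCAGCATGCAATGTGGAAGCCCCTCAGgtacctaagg
ATPSCKMT, chr5:10235201-10235271: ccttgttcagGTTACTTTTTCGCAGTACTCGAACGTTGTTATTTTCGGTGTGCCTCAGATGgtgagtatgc
TP53BP1, chr15:43447356-43447495: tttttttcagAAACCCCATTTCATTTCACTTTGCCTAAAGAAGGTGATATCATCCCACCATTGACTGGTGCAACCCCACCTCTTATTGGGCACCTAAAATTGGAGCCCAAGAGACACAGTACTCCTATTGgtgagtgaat
KIF21A, chr12:39330232-39330272: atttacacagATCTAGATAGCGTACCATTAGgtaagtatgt

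The 49-base exon of GNB1, a G protein subunit gene, lies outside the coding sequence (chromosome 1, 1839190 to 1839238). Its inclusion was 58.2%, 52.1% and 54.0% in AGO1 knockout and 88.5%, 91.0% and 86.9% in AGO2 knockout nuclei (log2 ratio 2.70, SE 0.213, adjusted P 0.00024). Wild type, at a mean of 88.0%, and the AGO1/2 knockout, at 87.3%, were level with the AGO2 knockout, so the AGO1 knockout stood apart. The 29-base exon of ADAM15, a transmembrane protease, was included at 17.9%, 25.7% and 18.2% in AGO1 knockout and 3.89%, 2.90% and 2.33% in AGO2 knockout nuclei (log2 ratio -2.81, SE 0.305, adjusted P 0.0018). Its length is not a multiple of 3, and here the wild-type mean of 15.1% was near the AGO1 knockout and the AGO1/2 knockout mean of 1.39% near the AGO2 knockout. Only 1 quantified transcript carried this exon in the event. A 77-base exon of ADAM15 was called the other way, from a mean of 82.5% to 97.6%. In the AGO2 knockout the TPM with the 29-base exon and without the 77-base exon were both 0.422, so the change cannot be assigned to either exon alone.

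The 120-base exon of TP53BP1, a DNA repair adaptor, was at 72.7%, 70.1% and 70.9% inclusion in AGO1 knockout and 86.3%, 89.3% and 89.7% in AGO2 knockout nuclei (adjusted P 0.037). The 51-base exon of ATPSCKMT, a mitochondrial lysine methyltransferase, was at 69.8%, 70.4% and 65.8% against 85.6%, 84.8% and 86.9% (adjusted P 0.025). Both exons keep the reading frame by length. In FKBP10, an ER prolyl isomerase, the 146-base exon was at 62.4%, 62.7% and 61.6% against 88.9%, 82.7% and 86.6% (adjusted P 0.0018), and the 74-base exon of MSRB3-AS1 at 16.9%, 15.6% and 14.2% against 65.3%, 39.8% and 45.4%, at 11.7 and 1.04 TPM in all.

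Among the losses, the 186-base exon of the kinase gene STK26 was at 59.9%, 66.8% and 64.3% against 46.5%, 47.7% and 46.3% (adjusted P 0.041). The 351-base exon of IP6K1, an inositol phosphate kinase gene, was at 86.5%, 92.8% and 91.9% against 74.4%, 74.9% and 77.6% (adjusted P 0.041). These losses were of 16.8 and 14.8 points. AFMID and PRPS1 rested on little RNA, with 1.53 TPM of AFMID event transcripts in the AGO2 knockout and 1.22 TPM of PRPS1 event transcripts in the AGO1 knockout, and their inclusion ranged from 0% to 42.3% and from 4.51% to 27.2% within those groups. When only the 6 single knockout libraries were fitted, 8 events were called, and of the 10 named here GNB1 alone kept its call. With each of the 6 libraries left out in turn, GNB1, ADAM15, FKBP10 and MSRB3-AS1 kept their calls throughout, whereas ATPSCKMT, TP53BP1 and STK26 lost theirs each time.

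**Figure D4:**
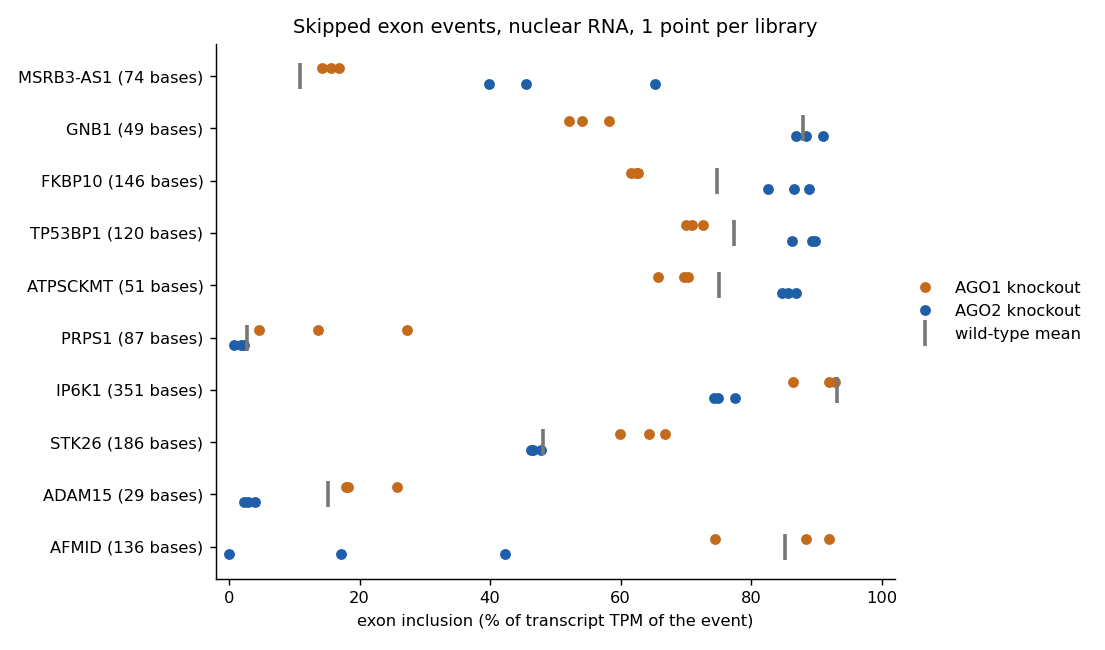
Inclusion of the 10 named exons (horizontal axis, percent of the event's transcript TPM) in single libraries of the AGO1 knockout (orange) and AGO2 knockout (blue), with the wild-type mean as a grey bar. Exon length is given beside each gene. The GNB1 exon separates at 52.1% to 58.2% against 86.9% to 91.0%, while AFMID spreads from 0% to 42.3% within the AGO2 knockout.

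In the 7 genes the study followed by PCR, 45 events were tested and limma called 0, with 7 at an unadjusted P under 0.05 and a lowest adjusted P of 0.178. The study chose these genes from AGO1/2 and AGO1/2/3 knockouts against wild type, and that contrast was not tested here. The 0 calls between the single knockouts therefore do not bear on its PCR results. The 21-base exon of KIF21A was included at 27.0%, 21.3% and 23.1% in AGO1 knockout and 24.97%, 22.8% and 25.4% in AGO2 knockout nuclei, with adjusted P 0.965, and the groups overlapped. The 75-base exon of RUBCN, an autophagy regulator, was at 10.1%, 6.28% and 8.06% against 14.7%, 13.0% and 14.1% (adjusted P 0.256). The 92-base exon of FKBP14, an ER prolyl isomerase, was at 26.4%, 27.0% and 31.6% against 18.9%, 26.1% and 20.5% (adjusted P 0.638). The 174-base exon of PPIP5K2, an inositol pyrophosphate kinase, was at 70.4%, 67.7% and 66.2% against 64.7%, 63.0% and 63.8% (adjusted P 0.772). The libraries of RUBCN, FKBP14 and PPIP5K2 did not overlap between the knockouts, although these exons were not called. Among all genes tested 47.8% did not overlap either, and the share over all exon events is not given here. No difference is therefore read from this separation. The 129-base exon of PHLDB1 was at 3.40%, 7.96% and 9.10% against 3.59%, 2.09% and 4.01%, the 70-base exon of TBC1D5 at 90.9%, 87.9% and 90.4% against 88.8%, 88.0% and 86.3%, and the APIP exon that could be tested, of 101 bases, at 68.6%, 57.5% and 50.9% against 62.6%, 60.4% and 59.1%. These groups overlapped, with adjusted P of 0.764, 0.81 and 0.97. None of the alternative settings called an event in these genes, and the lowest P belonged to a TBC1D5 event at a mean of 1.10 TPM.

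The same contrast in cytoplasmic RNA of the same lines, at the same passages, gave 6553 called genes of 19066 (34.4%), with 3651 higher in the AGO2 knockout (19.1%) and 2902 lower (15.2%). These libraries held 66451720 to 77898671 reads, and the difference between the fractions was tested as an interaction over 12 libraries. It was called for 236 genes (1.24%), of which 78 had a more positive AGO2 minus AGO1 difference in nuclei (0.409%) and 158 in cytoplasm (0.829%). DESeq2 called 515, with 233 more positive in nuclei. With fractions of the same genotype and passage blocked as a shared culture, edgeR called 577, with 298 more positive in nuclei. The balance of directions thus depended on the setting. CPM in this paragraph and the next come from the 12-library fit. AGO1 itself had the most marked difference of any named gene with reads in every group. In the AGO1 knockout it fell to 15.8, 16.9 and 15.2 CPM in cytoplasm but stood at 55.7, 52.4 and 53.3 CPM in nuclei, while the AGO2 knockout held 206, 208 and 203 CPM and 149, 140 and 142 CPM. The log2 difference was 3.69 in cytoplasm and 1.42 in nuclei, and the interaction was -2.27 (SE 0.0723, adjusted P 4.2e-10). For AGO2 the interaction was 0.33 (adjusted P 0.039), with -0.66 in cytoplasm, where the level was 487, 478 and 447 CPM in AGO1 knockout and 305, 295 and 294 CPM in AGO2 knockout cells. For both targeted genes the knockouts thus differed more in cytoplasm than in nuclei. In this fit AGO3 was higher in the AGO2 knockout in both fractions, by 0.16 in nuclei (adjusted P 0.0195) and 0.25 in cytoplasm (adjusted P 0.0012).

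FKBP10, whose exon is described above, was at 23.8, 21.6 and 22.1 CPM in AGO1 knockout and 40.1, 40.5 and 39.8 CPM in AGO2 knockout nuclei, but at 4.83, 4.36 and 3.85 CPM and 34.2, 34.1 and 36.2 CPM in cytoplasm (interaction -2.17, SE 0.0987, adjusted P 1.9e-08). The stress kinase gene MAP4K5 was at 49.8, 51.8 and 52.0 CPM and 58.8, 57.8 and 57.9 CPM in nuclei, but at 10.2, 11.1 and 9.58 CPM and 46.1, 49.9 and 44.7 CPM in cytoplasm (interaction -2.01, SE 0.0836, adjusted P 8.4e-09). Both were lower in the AGO1 knockout in nuclei as well, by less than in cytoplasm. SLC23A2, a vitamin C transporter, was low in the cytoplasm of the AGO2 knockout, at 7.43, 6.70 and 7.07 CPM against 42.8, 43.8 and 42.6 CPM in the AGO1 knockout, with 23.7, 23.2 and 21.8 CPM against 44.4, 43.0 and 45.4 CPM in nuclei (interaction 1.66, SE 0.0779, adjusted P 2.2e-08). UTRN, a dystrophin relative, was at 13.4, 11.8 and 14.8 CPM against 62.2, 54.2 and 61.6 CPM in cytoplasm and at 114, 127 and 123.1 CPM against 226, 242 and 243 CPM in nuclei (interaction 1.19, adjusted P 6.7e-05). These genes had a smaller difference in nuclei than in cytoplasm.

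**Figure D5:**
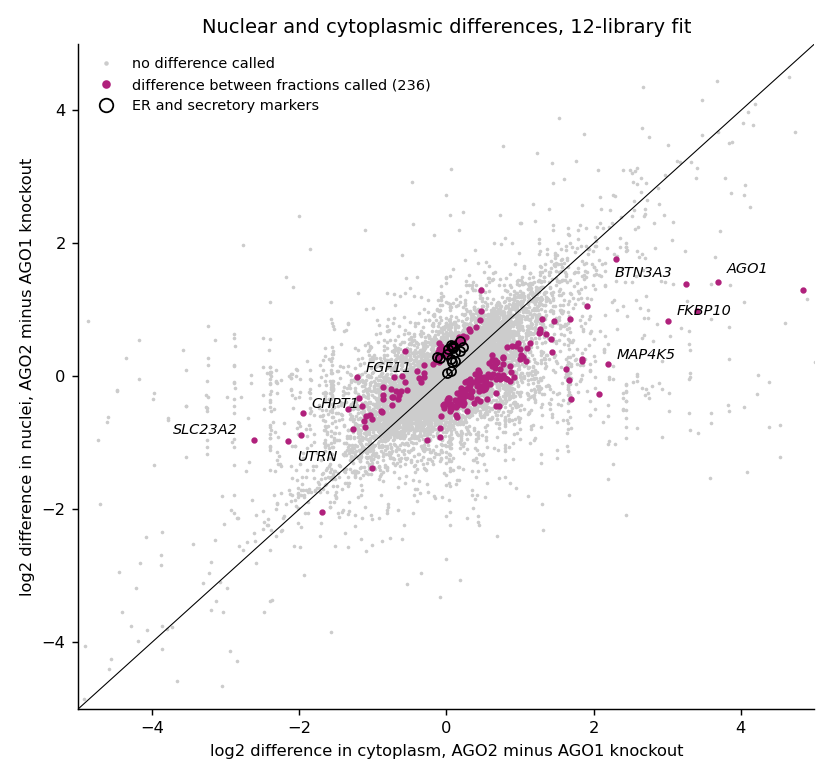
Log2 difference, AGO2 minus AGO1 knockout, in cytoplasm (horizontal axis) and in nuclei (vertical axis) for genes of the 12-library fit, with the line of equality. Coloured points are the 236 genes called for a difference between the fractions, rings are ER and secretory markers, and 103 genes lie outside the axes. AGO1, FKBP10 and MAP4K5 lie right of the line, SLC23A2, CHPT1 and UTRN left of it, and the ER markers above it.

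Among the lists the ER and secretory markers stood out in this test by count. The interaction was called for 7 of 17, all more positive in nuclei, and in cytoplasm 3 of the 17 were higher in the AGO2 knockout with a median log2 difference of 0.07, against 0.37 in nuclei. Of the p53 targets 13 of 22 were lower in the cytoplasm of the AGO2 knockout and 1 was higher, with a median of -0.42. Of the interferon-stimulated genes 12 of 32 were higher there and 1 was lower, with a median of 0.23. Epithelial genes were also higher in cytoplasm in 19 of 34 members and lower in 5, with a median of 0.32. For EPCAM the interaction was 0.41 (adjusted P 0.023), with 0.30 in cytoplasm, and for DSG2, a desmosome cadherin, 0.40 (adjusted P 0.017), with 0.04 in cytoplasm and a difference in nuclei of 0.44. EPCAM and DSG2 were again chosen after their values were seen, and both encode proteins made at the ER.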

How the data were processed

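Libraries were stranded total RNA after Ribo-Zero depletion, sequenced as paired ends on a NextSeq 500. The authors aligned reads to hg38 and quantified transcripts with Salmon. The processing notes name STAR 2.5.3a and Salmon 0.11.0, and the study's methods name other versions. The deposited estimated counts are Salmon's unscaled read estimates per transcript, and the deposited TPM values are those reads scaled by the authors with Salmon for effective length and library total. The annotation the authors name has a release number that GRCh38 annotations do not carry, and GENCODE release 44 took its place. It held 195887 transcripts of the files, and the 4514 without a match, 3.74% to 4.01% of reads in the 6 libraries, were left out.

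Estimated counts were summed per gene and rounded. Genes were tested by the quasi-likelihood method of edgeR 4.0.16 (R 4.3.3) with TMM scaling and filterByExpr at a minimum count of 10, in a single fit of the 15 nuclear libraries and with Benjamini-Hochberg adjusted P of at most 0.05 as the threshold. The difference between fractions was an interaction term over 12 libraries. Exon events were tested with limma 3.58.1 on log2 of TPM with the exon over TPM without it, after adding 0.1 to both, at a mean of at least 1 TPM and a change of at least 10 points. Junction reads were not used. Permutation P are exact and two-sided. Steps were tested on simulated data. DESeq2 1.42.0, Python 3.11.15, pandas 2.3.3, numpy 2.4.6, scipy 1.17.1 and matplotlib 3.10.9 were also used. Other filters, scalings, units, tools and samples were tried.

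The members and gene lists were chosen with earlier results of these data known. Named genes were the 12 called protein-coding genes or lncRNAs with the largest difference in each direction, at least 5 CPM in the higher group and no overlap, the 4 called members of each list with the largest difference, all microRNA pathway genes, the 5 largest called interactions in each direction and the 6 largest called exon changes in each direction with a mean of at least 2 TPM. The eCLIP samples were not analysed here. The precision of each value is set by the reads behind it and by 3 libraries per group. Some genes and exons that these rules name are not reported here.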

Additional observations from a re-analysis of the deposited data

Results flagged for a closer look

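The difference between the knockouts differed between nuclei and cytoplasm for 236 genes by the edgeR interaction test, and the 10 named by rule are listed with their interaction, nuclear minus cytoplasmic log2 difference. For AGO1 it was -2.27, for FKBP10 -2.17, for MAP4K5 -2.01, for SLC23A2 1.66 and for UTRN 1.19, with the levels given in the report. BTN3A3, a butyrophilin of the immunoglobulin superfamily, gave -1.87 (adjusted P 0.00038), at 2.58, 3.09 and 3.22 CPM in AGO1 knockout and 6.76, 8.15 and 8.45 CPM in AGO2 knockout nuclei and at 0.404, 0.439 and 0.342 CPM and 3.48, 4.07 and 3.81 CPM in cytoplasm. CHPT1, which makes phosphatidylcholine, gave 1.40 (adjusted P 0.00022), at 16.9, 16.0 and 16.6 CPM against 11.4, 12.3 and 10.2 CPM in nuclei and 27.3, 27.8 and 22.8 CPM against 6.36, 7.70 and 6.00 CPM in cytoplasm. FGF11, an intracellular fibroblast growth factor homologue, gave 1.20 (adjusted P 0.0032), with a log2 difference of -0.01 in nuclei and -1.21 in cytoplasm.

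The remaining genes had a group at 0, so that their fitted interactions, -8.76 for the lncRNA ENSG00000277991 (adjusted P 0.0078) and 9.69 for ENSG00000285283 (adjusted P 0.017), depend on the prior count and are no bound. ENSG00000277991, on chromosome 21, had 0 reads in cytoplasm of the AGO1 knockout against 870 in that of the AGO2 knockout, at least 302-fold lower with 3 reads over the group as the limit, and was at 5.27, 3.62 and 6.56 CPM against 21.98, 20.2 and 26.8 CPM in nuclei. ENSG00000285283, on chromosome 11, had 0 reads in AGO1 knockout nuclei against 390 in AGO2 knockout nuclei, at least 114-fold lower with the same limit, and was at 11.9, 15.3 and 11.9 CPM against 26.8, 12.2 and 20.8 CPM in cytoplasm. It missed the threshold without passage 7 of the nuclear AGO1 knockout (adjusted P 0.054). Groups of 3 libraries were too small for the test of outlying samples.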

How the results depend on the processing

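The balance of interaction directions changed under the alternatives run, and values near 0 could change sign. The median log2 difference over all tested genes went from -0.01 to 0.002 without passage 9 of the AGO2 knockout. The 4996 nuclear gene calls became 2684 and 2824 with limma on log2(TPM + 1) and log2(TPM + 0.1), rose to 6803 with the 6 libraries only, and ranged from 3707 to 4137 with 1 library left out. AGO1 and AGO2 kept direction and call under every alternative, ranging without 1 library from 1.39 to 1.44 and from -0.37 to -0.29 in log2 difference. For single named genes and members 97 values lost and 8 gained a call, and 1496 kept theirs. The 236 interaction calls became 515 with DESeq2 and 415 without a count filter, and ranged from 125 to 268 with 1 library left out, the lowest without passage 9 of the nuclear AGO2 knockout (125) and passage 7 of the nuclear AGO1 knockout (130), then passage 6 of the nuclear AGO1 knockout (150) and passage 7 of the cytoplasmic AGO1 or passage 8 of the nuclear AGO2 knockout (151 each). The 21 exon calls became 105 with a pseudocount of 1 TPM, 7 at a change of at least 0.2, 71 with protein-coding transcripts only and 8 with the 6 libraries only, and 14 to 19 with 1 library left out, the lowest (14) without passage 8 of the AGO2 knockout. FKBP10 and AFMID had no value with protein-coding transcripts only. The causes were not tested.

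No paired analysis was possible because the 2 nuclear groups share passage 8 alone. For the interaction, nuclear and cytoplasmic libraries share passage numbers within a genotype. Deviations from group means correlated at 0.0587 to 0.525 between libraries of the same passage and at a mean of -0.27 to -0.02 with the other passages, higher for the own number in all 6 on average, but 2 of 6 pairs were under 0.1 and the numbers were not treated as pairs. With culture as a replicate block 577 genes were called, 235 of them among the 236, and 298 of the 577 were more positive in nuclei, against 78 of the 236.

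Depth limits genes under about 1 CPM, exons of low genes rest on few reads, and single-line knockouts carry no replicate of the editing itself.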
